A study of Mus musculus with 32 samples.

Results

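The 32 RNA sequencing libraries of mouse brain arteries were divided by how much smooth muscle RNA each one held. For each library, the counts of *Acta2* (smooth muscle actin) and *Myh11* (smooth muscle myosin heavy chain) were scaled to the library's total count (CPM), and the mean of log2(CPM + 1) of the 2 genes was taken as a smooth muscle score. In each of the 4 groups of 8 mice, the 4 libraries with the highest scores formed the high set and the 4 with the lowest scores the low set, giving 16 high and 16 low libraries of 32 in all. The sets were thus chosen by the measured levels of *Acta2* and *Myh11* and not by a treatment, and these 2 genes are described below without a test. All other genes were measured in the same libraries, so the comparison shows which transcripts varied together with these 2 between mice of 1 genotype and age.

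At 3 months of age the mice were *Notch3+/+* or *Notch3-/-*, and at 12 months WT (non-Tg) or TgNotch3R169C, all untreated and on a C57BL/6 background. *Notch3-/-* mice carry an inactivated *Notch3* gene, and TgNotch3R169C mice carry, beside their own *Notch3* genes, rat *Notch3* with the cysteine mutation R169C of the small vessel disease CADASIL, introduced on a phage P1-derived artificial chromosome. Each set holds 4 libraries of every group. Each mouse gave 1 library, prepared from poly(A)-selected RNA with a stranded kit.

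Smooth muscle cells wrap brain arteries in circumferential layers and set the vessel's diameter. They contract when calcium and calmodulin activate myosin light chain kinase, and myosin phosphatase reverses this. Their differentiated state is marked by a set of cytoskeletal genes, many of which are driven by serum response factor and its coactivator myocardin through a DNA element called the CArG box, and the receptor NOTCH3, which endothelial Jagged ligands activate, maintains it. In RNA from whole arteries, fewer smooth muscle cells and less of these RNAs per cell cannot be told apart.

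The score ran from 10.03 to 9.59 in the high and from 9.52 to 9.17 in the low set of *Notch3+/+* mice, and from 9.10 to 8.77 and from 8.61 to 8.51 in *Notch3-/-* mice. In WT mice it ran from 8.93 to 8.66 in the high and from 8.61 to 8.17 in the low set, and in TgNotch3R169C mice from 8.68 to 8.47 and from 8.39 to 7.99. The sets were thus not separate clusters. The libraries just inside and just outside the high set were replicates 1 and 5 of *Notch3+/+* (9.59 and 9.52), replicates 5 and 7 of *Notch3-/-* (8.77 and 8.61), replicates 3 and 8 of WT (8.66 and 8.61), and replicates 1 and 4 of TgNotch3R169C mice (8.47 and 8.39). The mean score of the sets differed by 0.46 in *Notch3+/+*, 0.33 in *Notch3-/-*, 0.32 in WT, and 0.35 in TgNotch3R169C mice. As a level, *Acta2* lay between 409 and 1182 CPM (median 544) in the high and between 291 and 801 CPM (median 446) in the low libraries, and *Myh11* between 296 and 926 CPM (median 374) and between 220 and 671 CPM (median 298). Both markers were thus abundant in every library, and the low set is low only beside the other libraries of its group.

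**Figure D1:**
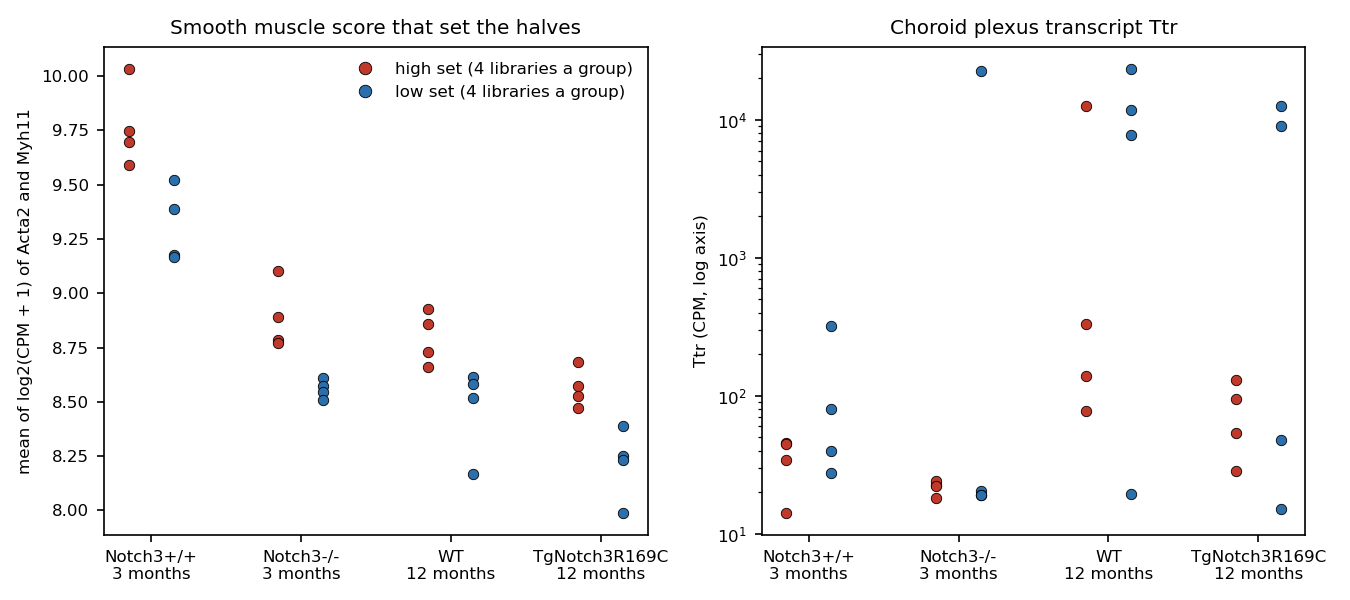
Left, the smooth muscle score (mean of log2(CPM + 1) of Acta2 and Myh11) of each of the 32 libraries by group, the 4 high libraries in red and the 4 low ones in blue. Right, the level of the choroid plexus transcript Ttr in the same libraries on a log axis, where 7 libraries, 6 of them in the low set, lie at or above 7797 CPM and the other 25 at or below 330 CPM.

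Some libraries stood apart. *Ttr*, the transthyretin gene that the choroid plexus expresses at very high levels, was between 7797 and 23352 CPM in 7 libraries and between 14.1 and 330 CPM in the other 25. Of these 7, 6 were in the low set (replicate 8 of *Notch3-/-*, replicates 5 and 8 of TgNotch3R169C, and replicates 2, 4, and 6 of WT mice) and 1, replicate 5 of WT mice, was in the high set. Replicate 5 of *Notch3+/+* mice, a low library, held 5795 CPM of the pituitary hormone transcript *Prl*. Total counts were 20486502 to 54481934 in high and 20289487 to 48829159 in low libraries, and mitochondrial transcripts took 3.20% to 4.25% and 3.11% to 4.21% of them. *Xist*, which is expressed from the inactive X chromosome of females, was at 1419 to 1808 CPM in replicates 5 to 8 and at 0.573 to 2.40 CPM in replicates 1 to 4 of every group, and exceeded 100 CPM in 7 high and 9 low libraries. *Notch3* itself was between 13.6 and 18.7 CPM in the 8 *Notch3-/-* libraries, where the gene is inactivated, against 65.5 to 97.8 CPM in *Notch3+/+* libraries, and between 108 and 220 CPM in TgNotch3R169C and 60.7 and 84.7 CPM in WT libraries.

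High libraries held more RNA of the contractile and cytoskeletal apparatus of smooth muscle than low libraries. Of 18723 genes tested with group as a covariate, 30 rose (0.16% of all genes tested) and 2 fell (0.0107%) in the high set at a Benjamini-Hochberg adjusted p below 0.05 in edgeR's quasi-likelihood test, together 0.171%. The 30 log2 fold changes ranged from 0.10 to 0.51 and their median was 0.33, beside a median over all genes tested of −0.0017. All 30 were higher in the high set in each of the 4 groups, which held for 11.4% of all genes, and both lower genes were lower in each group, which held for 12.4%. The called genes were chosen by a test over the same 4 groups, which favours such agreement. At an unadjusted p below 0.05 there were 2295 genes (12.3%), 957 higher and 1338 lower. For 10 of the 30 genes the 4 high libraries lay entirely above the 4 low ones in at least 3 groups, and no other gene of the 18723 did so (0.0534% in all). In at least 2 groups this held for 40 genes (0.214%), 18 of them called, and the high libraries lay entirely below the low ones for 15 genes (0.0801%), 1 of them called.

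The smallest adjusted p belonged to *Susd5* (ENSMUSG00000086596), which encodes a membrane protein with a sushi domain and is one of 11 genes that the study used as targets of NOTCH3. Its levels in *Notch3+/+* mice were 27.4, 34.7, 35.8, and 38.5 CPM in the high and 21.4, 21.7, 23.7, and 24.0 CPM in the low libraries. In *Notch3-/-* mice they were 12.4, 14.98, 15.3, and 15.8 CPM against 10.2, 10.3, 10.7, and 10.99 CPM. In these groups every high library exceeded every low one. In WT mice the levels were 16.1, 17.0, 17.3, and 21.2 CPM against 12.2, 13.1, 13.8, and 14.3 CPM, again without overlap. In TgNotch3R169C mice the levels 11.8, 12.6, 14.4, and 16.1 CPM overlapped with 9.86, 10.4, 10.6, and 13.1 CPM through replicate 7 of the low set. *Susd5* was 1.37-fold higher in the high set (log2 fold change 0.45, 95% CI 0.34 to 0.56, adjusted p = 7.2e-05). The *Notch3-/-* low libraries lay lowest and the *Notch3+/+* high libraries highest among the 3-month mice, so that the difference between sets was seen at both levels of the gene.

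*Mcam* (ENSMUSG00000032135), which encodes the adhesion molecule CD146 of smooth muscle, pericytes, and endothelium, separated the sets in all 4 groups. Its levels were 139.5, 165, 182, and 196 CPM in the high and 117, 123, 124, and 139 CPM in the low libraries of *Notch3+/+* mice. In *Notch3-/-* mice they were 114, 124, 125, and 142 CPM against 89.3, 98.4, 103, and 113 CPM. The nearest high and low libraries of these 2 groups thus differed by less than 1 CPM. In WT mice the levels were 94.5, 94.8, 103, and 116 CPM against 67.8, 84.0, 88.8, and 89.7 CPM. In TgNotch3R169C mice they were 92.4, 92.6, 98.8, and 105 CPM against 71.9, 78.8, 82.5, and 86.0 CPM. The log2 fold change was 0.34 (SE 0.05, adjusted p = 8.2e-04).

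*Csrp1* (ENSMUSG00000026421), a LIM protein that binds actin filaments through α-actinin, was the other gene without overlap in any group. Its levels were 429, 431, 470.3, and 542 CPM in the high and 345, 361, 384, and 418 CPM in the low libraries of *Notch3+/+* mice. In *Notch3-/-* mice they were 311, 329.6, 348, and 363 CPM against 293, 298, 305, and 306 CPM. The low libraries of *Notch3-/-* mice were closely spaced for this gene. In WT mice the levels were 303, 307, 347, and 357 CPM against 273, 283, 293, and 297 CPM, and in TgNotch3R169C mice 281, 282, 284, and 322 CPM against 227, 254, 264, and 265 CPM. *Csrp1* rose by 0.22 on the log2 scale (SE 0.04, adjusted p = 2.7e-03), a smaller difference than those of *Susd5* and *Mcam*.

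**Figure D2:**
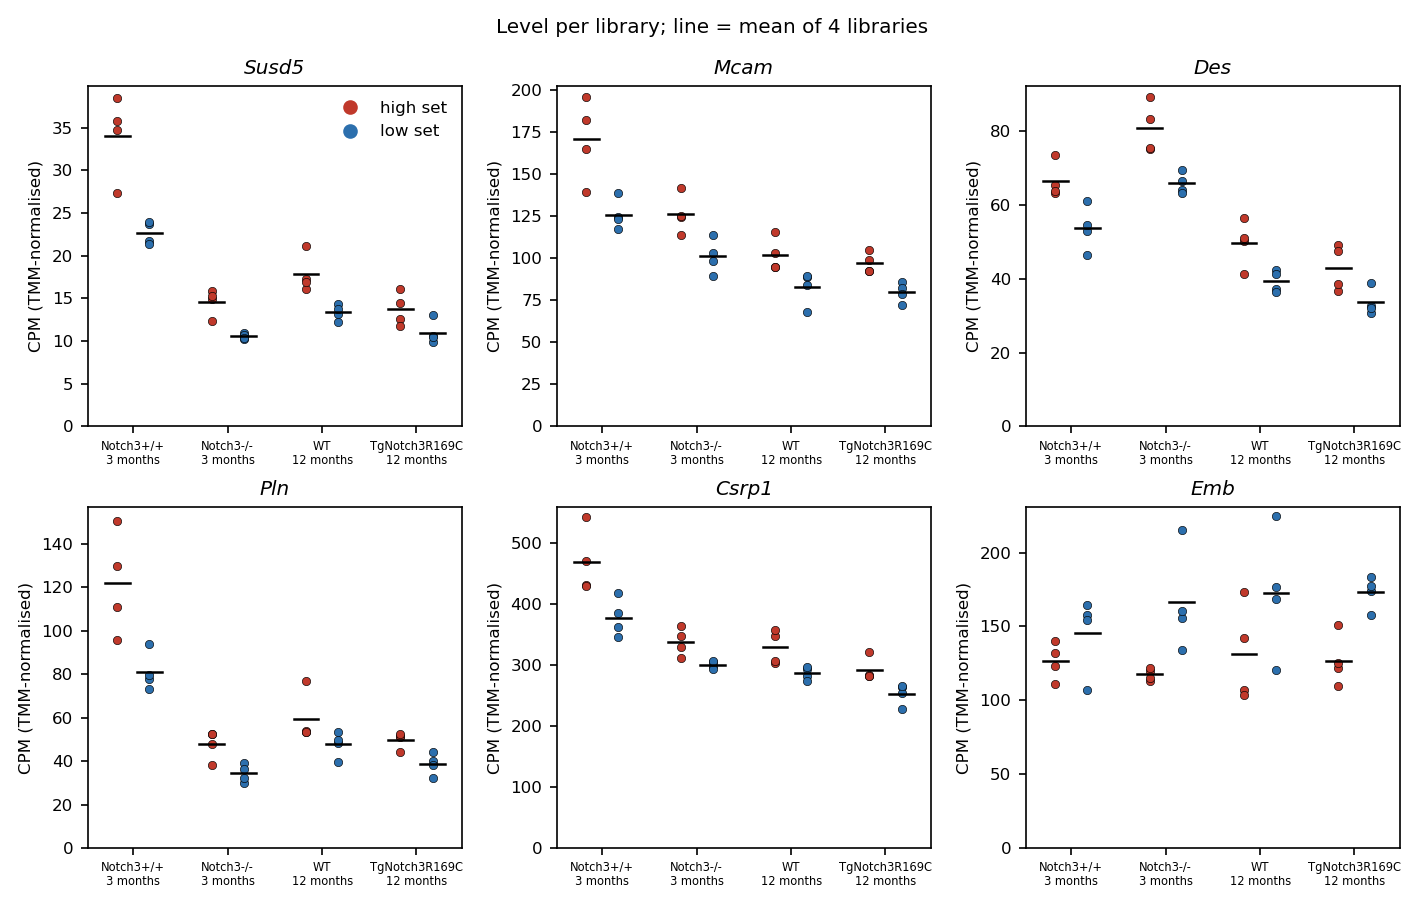
Levels (TMM-normalised CPM) of Susd5, Mcam, Des, Pln, Csrp1, and Emb in each library by group, with high libraries in red, low libraries in blue, and lines at the mean of 4 libraries. High libraries of Mcam and Csrp1 lie above the low ones in all 4 groups. The mean of Emb is lower in the high set of each group, and its high libraries lie entirely below the low ones in Notch3-/- and TgNotch3R169C mice only.

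The list of 23 genes of the contractile apparatus held 8 of the 30 genes that rose, where 0.16% of all genes tested rose. All 23 log2 fold changes were above 0, beside 49.2% of all genes tested, and their median was 0.20. An unadjusted p below 0.05 was found for 19, beside 12.3% of all genes in either direction. The 8 were the actin-binding proteins *Tagln* (transgelin) and *Cnn1* (calponin), the myosin regulatory light chain *Myl9*, the myosin phosphatase inhibitor *Ppp1r14a* (CPI-17), *Tpm2* (β-tropomyosin), the intermediate filament gene *Des* (desmin), *Synpo2*, which bundles actin, and *Csrp1*.

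*Tagln* levels spanned 368 to 949.8 CPM (median 480.4) in the 16 high and 239 to 670.2 CPM (median 366) in the 16 low libraries, and the sets did not overlap in 3 of the 4 groups. By group, the means were 796 ± 115 and 619 ± 55.1 CPM (SD, n = 4 each) in *Notch3+/+*, 528 ± 78.6 and 391.6 ± 37.4 CPM in *Notch3-/-*, 439.7 ± 48.5 and 349 ± 40.8 CPM in WT mice, and 391 ± 35.5 and 319 ± 56.2 CPM in TgNotch3R169C mice. The ranges over all libraries overlap in part because the groups differ in level. The log2 fold change within groups was 0.36 (SE 0.06, adjusted p = 3.7e-03). *Des* spanned 36.8 to 89.2 CPM (median 59.9) in high and 30.6 to 69.4 CPM (median 44.4) in low libraries, and rose by 0.32 on the log2 scale (SE 0.05, adjusted p = 1.1e-03). *Cnn1* spanned 35.4 to 134 CPM (median 52.4) and 23.7 to 93.3 CPM (median 38.9). Its log2 fold change of 0.41 (SE 0.07, adjusted p = 8.1e-03) was the largest of the list, and it lay between 0.38 and 0.48 in the 4 groups. *Ppp1r14a* spanned 18.4 to 39.2 CPM (median 21.4) and 13.5 to 28.1 CPM (median 18.1), with a log2 fold change of 0.34 (SE 0.05).

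Other genes of the same apparatus did not pass edgeR's test, although DESeq2 called 14 of the 23. Over all 18811 genes that it tested, DESeq2 called 276, 119 of them higher. The actin crosslinker *Flna*, the most abundant of the list, had a log2 fold change of 0.19 (SE 0.05), *Mylk*, the myosin light chain kinase, 0.22 (SE 0.05), *Smtn* (smoothelin) 0.20 (SE 0.05), *Tpm1* 0.18 (SE 0.04), *Lmod1* (leiomodin) 0.24 (SE 0.07), *Cald1* (caldesmon) 0.11 (SE 0.04), and the focal adhesion gene *Tln1* (talin) 0.05 (SE 0.04).

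The promoters of the genes that rose were searched for the CArG box on both strands, in the 250 bases before and the 50 bases after each start site of RefSeq (GRCm38.p6). Of the 30 genes, 25 had a promoter in the RefSeq table, and 2 of these (8%) held a CArG box: *Myl9* and *Myom1*. Among the 13114 tested genes with a promoter, 205 (1.56%) held one. The 2 stretches of 100 bases are shown 5′ to 3′ with the CArG box in capitals because this element binds serum response factor. That of *Myl9* is chr2:156775273-156775372, plus strand, and its box begins 161 bases before the start. That of *Myom1* is chr17:71019428-71019527, plus strand, and its box begins 99 bases before the start.
Myl9: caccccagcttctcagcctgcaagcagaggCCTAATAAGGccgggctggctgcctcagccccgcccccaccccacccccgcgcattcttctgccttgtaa
Myom1: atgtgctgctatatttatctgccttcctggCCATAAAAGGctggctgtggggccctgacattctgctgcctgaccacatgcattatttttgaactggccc
*Myl9* levels spanned 257 to 660.2 CPM (median 323) in high and 179 to 459.6 CPM (median 272) in low libraries (log2 fold change 0.33, SE 0.06, adjusted p = 3.7e-03). *Myom1*, which encodes the M-band protein myomesin, spanned 51.5 to 175 CPM (median 72.7) and 43.3 to 117 CPM (median 60.6) (log2 fold change 0.40, SE 0.07, adjusted p = 9.8e-03). In the other 23 genes with a promoter these letters were not in the window. They were also absent from the window of *Acta2*, and *Myh11* had no promoter in the RefSeq table. The search covered only this window and pattern, so it does not show that a gene lacks a CArG box elsewhere.

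Of 19 genes of ion channels and calcium handling, 3 rose and the median log2 fold change of the list was 0.03. In this list 14 genes lay above and 5 below 0, and 5 were higher and 2 lower in all 4 groups. The abundant *Itpr1* did not pass edgeR's test. Its mean was lower in the high set of each group (378 and 455 CPM in *Notch3+/+*, 353 and 393 CPM in *Notch3-/-*, 518 and 586 CPM in WT, 393 and 488 CPM in TgNotch3R169C mice). *Pln* encodes phospholamban, the inhibitor of the calcium pump of the sarcoplasmic reticulum. Its mean levels in the high and low set were 122 ± 23.7 and 81.1 ± 8.88 CPM (SD, n = 4 each) in *Notch3+/+*, 47.7 ± 6.79 and 34.5 ± 4.15 CPM in *Notch3-/-*, 59.4 ± 11.8 and 47.7 ± 5.70 CPM in WT mice, and 49.8 ± 3.85 and 38.6 ± 4.96 CPM in TgNotch3R169C mice. The sets of *Pln* overlapped in *Notch3-/-* mice only, where 1 high library lay below 1 low one. Its log2 fold change was 0.44 (SE 0.07, adjusted p = 2.4e-03). *Kcnmb1*, the β1 subunit that makes the large-conductance calcium-activated potassium channel of smooth muscle more sensitive to calcium, spanned 7.28 to 19.5 CPM in high and 4.93 to 13.9 CPM in low libraries and rose by 0.37 on the log2 scale (SE 0.07, adjusted p = 0.012). *Jph2*, a junctophilin that ties the sarcoplasmic reticulum to the plasma membrane, rose by 0.26 (SE 0.06, adjusted p = 0.037). Of 19 receptor and cGMP signalling genes, 1 rose in edgeR's test, *P2rx1*, the ATP-gated cation channel of sympathetic contraction (log2 fold change 0.42, SE 0.08, adjusted p = 0.013). *Pde3a* did not pass edgeR's test between the sets, but DESeq2 called it higher (log2 fold change 0.28, adjusted p = 0.011). The list's median was 0.06, with 14 genes above and 5 below 0, 1 of these 5 at an unadjusted p below 0.05.

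Among the other genes that rose were 2 further LIM and PDZ proteins of the Z-disc and stress fibres, *Pdlim3* (log2 fold change 0.34, SE 0.05) and *Pdlim1* (0.30, SE 0.06). *Synpo2l*, a relative of *Synpo2*, had a level of only 1.41 CPM on average and a log2 fold change of 0.45 (SE 0.09). *Itga8*, the α8 integrin of smooth muscle, rose by 0.33 (SE 0.06), with 0.57 in *Notch3+/+* and 0.10 in TgNotch3R169C mice. *Ppp1r12c*, a targeting subunit of myosin phosphatase, had the smallest difference of the 30 (0.10, SE 0.02). *Rrad*, a small GTPase that restrains voltage-gated calcium channels, rose by 0.31 (SE 0.07) over the 4 groups and had a log2 fold change of 0.05 in WT mice. *Rasl12*, a Ras-like GTPase, rose by 0.28 (SE 0.05), *Efhd1*, a mitochondrial calcium-binding protein, by 0.22 (SE 0.04), the secreted protein *Cytl1* by 0.26 (SE 0.06), *Prrt4* by 0.44 (SE 0.09), and *Map3k7cl* by 0.39 (SE 0.08). The genes *Gm13889* (0.30, SE 0.06), *2010111I01Rik* (0.19, SE 0.04), and *4930520O04Rik* (0.51, SE 0.11) also rose, the last at a mean level of 1.30 CPM.

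Of the 2 genes that fell, *Emb* encodes embigin, a partner protein of monocarboxylate transporters. Its levels spanned 104 to 174 CPM (median 122) in high and 107 to 225 CPM (median 162) in low libraries, without overlap in *Notch3-/-* and TgNotch3R169C mice. It fell by 0.39 on the log2 scale (SE 0.08, adjusted p = 0.037). *Slit2*, a secreted ligand of Roundabout receptors, spanned 91.9 to 156 CPM (median 121) and 110.2 to 219 CPM (median 152). It fell by 0.34 on the log2 scale (SE 0.07, adjusted p = 0.022). In 32 edgeR fits that each left out 1 library, *Emb* was called in 11 and *Slit2* in 32. With the smooth muscle score as a continuous term in place of the sets, edgeR called neither (adjusted p = 0.094 for *Emb* and 0.057 for *Slit2*).

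**Figure D3:**
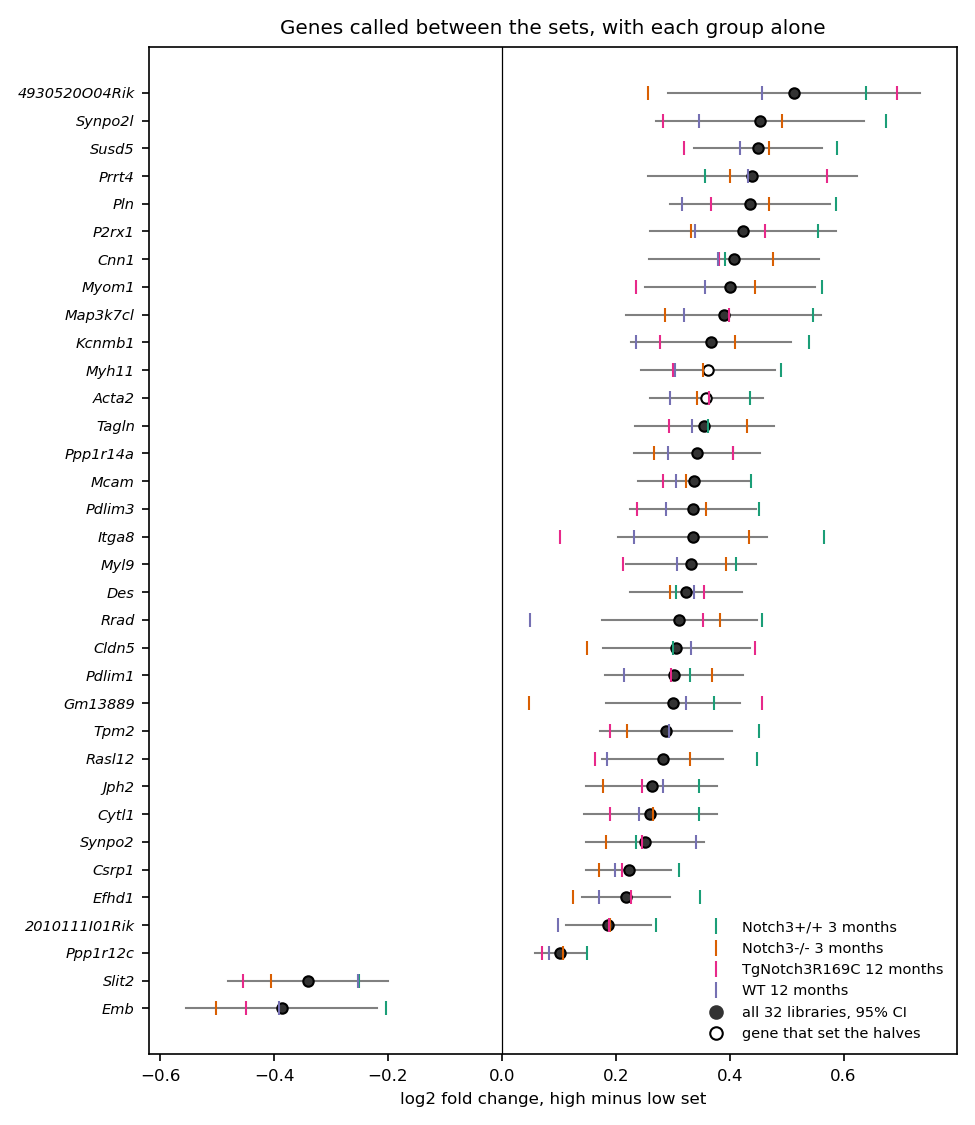
Log2 fold change (high minus low set) of the 30 genes that rose and the 2 that fell, with 95% CI from all 32 libraries and a coloured tick for each group alone. Open circles are Acta2 and Myh11, which set the sets, and all ticks of the 30 genes lie to the right of 0.

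None of the 16 transcription factors of smooth muscle passed edgeR's test (DESeq2 called 1, *Carmn*), although 5 had an unadjusted p below 0.05 and the median log2 fold change was 0.07. The long noncoding RNA *Carmn*, a regulator of smooth muscle differentiation, had a log2 fold change of 0.73 (SE 0.20) at 3.85 CPM, and *Myocd*, which encodes myocardin, 0.28 (SE 0.13) at 6.08 CPM. The serum response factor gene *Srf* had −0.02 (SE 0.05) and *Foxc1* 0.17 (SE 0.06).

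Of the 17 Notch receptors, ligands, and effectors none passed edgeR's or DESeq2's test, with 3 at an unadjusted p below 0.05 and a median of 0.07. *Notch3* had a log2 fold change of 0.09 (SE 0.07). Of the 11 genes that the study used as NOTCH3 targets, *Susd5* and *Pln* rose (DESeq2 also called *Sorbs2*), 5 had an unadjusted p below 0.05, and the median log2 fold change was 0.21. The other 9 were *Sorbs2* with 0.21 (SE 0.05), *Xirp1* with 0.23 (SE 0.08), *Nrip2* with 0.22 (SE 0.08), *Angpt4* with 0.29 (SE 0.22), *S1pr3* with 0.13 (SE 0.07), *Tbx2* with 0.08 (SE 0.09), *Grip2* with 0.04 (SE 0.12), *Pgam2* with 0.02 (SE 0.16), and *Cdh6* with −0.08 (SE 0.12). No gene of these 2 lists fell.

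None of the 13 elastic fibre genes passed edgeR's test (median log2 fold change 0.09, 4 at an unadjusted p below 0.05), and elastin, *Eln*, had 0.22 (SE 0.07). None of 13 basement membrane genes (median 0.06) and none of 12 genes of phenotype-switched smooth muscle (median 0.01, 6 above and 6 below 0) passed. DESeq2 called 1 elastic fibre gene and 1 gene of phenotype-switched smooth muscle higher, and no basement membrane gene.

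Most markers of endothelium lay higher in the high set, and so did most genes of several other lists given below. Of 22 endothelial genes, 21 had a log2 fold change above 0, the median was 0.13, and 10 higher and 1 lower had an unadjusted p below 0.05. *Cldn5*, the claudin of the blood-brain barrier's tight junctions, spanned 224 to 355 CPM (median 301) in high and 170 to 321 CPM (median 238) in low libraries and rose (log2 fold change 0.31, SE 0.06, adjusted p = 0.026). *Pecam1* had 0.21 (SE 0.06), the arterial factor *Sox17* 0.25 (SE 0.07), and *Emcn*, endomucin of veins and capillaries, −0.29 (SE 0.09). *Vwf*, the most abundant of the list, was not called. Its means in the high and low set were 823 and 849 CPM in *Notch3+/+* and 1102 and 904 CPM in *Notch3-/-* mice. They were 944 and 801 CPM in WT and 1002 and 977 CPM in TgNotch3R169C mice. The summed level of the list was 3862 to 5563 CPM in high and 3657 to 5206 CPM in low libraries. With the mean level of this list as a covariate, an alternative added after the data were seen, *Susd5* alone was called. The part of endothelial RNA in the other differences was not tested.

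None of the 12 pericyte genes passed edgeR's test (11 above 0, median 0.09), and *Vtn*, the most abundant, had 0.10 (SE 0.04). None passed edgeR's test among 17 fibroblast and leptomeningeal genes (median 0.04), 15 macrophage and microglial genes (median 0.09), 11 astrocyte genes (median 0.08), 12 oligodendrocyte genes (median 0.09), 8 Schwann cell genes (median 0.16), 7 red cell genes (median 0.28), or 8 genes of skeletal and cardiac muscle (median −0.0055). Above 0 lay 14 of these fibroblast, 14 macrophage, 8 astrocyte, and 10 oligodendrocyte genes. For the Schwann cell, red cell, and skeletal and cardiac muscle lists the numbers were 5, 6, and 3. Of 14 neuronal genes 13 lay below 0 (median −0.12), with none called. Of these lists DESeq2 called 1 Schwann cell gene higher and 1 gene of skeletal and cardiac muscle lower.

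**Figure D4:**
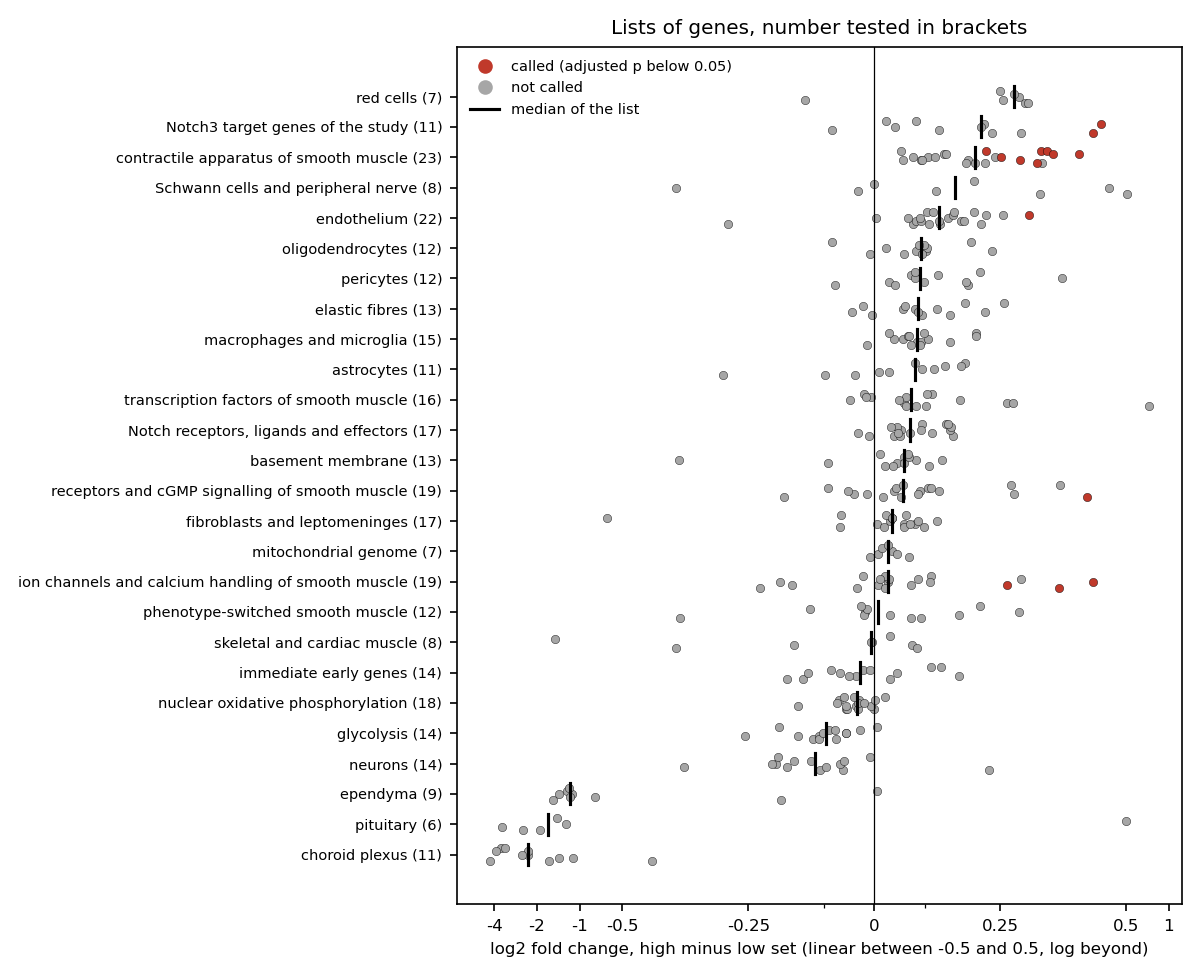
Log2 fold change (high minus low set) of every tested gene of each list on an axis that is linear between −0.5 and 0.5 and logarithmic beyond, one row per list with the number of genes tested in brackets and a black line at the median. Called genes, in red, lie in the contractile, channel, receptor, Notch3 target, and endothelial lists, and the choroid plexus, pituitary, and ependymal lists lie furthest to the left.

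Choroid plexus transcripts were lower in the high set by the widest margin of any list. No gene of the list passed edgeR's test, whereas DESeq2 called 9 of the 11 lower (157 of 18811 genes in all). All 11 lay below 0 with an unadjusted p below 0.05 and a median log2 fold change of −2.32. *Ttr* had −4.30 (SE 1.35), *Enpp2* (autotaxin) −2.32 (SE 0.68), and *Kl* (klotho) −1.12 (SE 0.33). The summed level of the list was 483 to 19332 CPM (median 657) in high and 514 to 39670 CPM (median 693) in low libraries, so the medians were close and the difference lay in the 7 libraries named above. None of 9 ependymal genes (median −1.17, 9.63 to 109.8 CPM summed in high and 8.98 to 149 CPM in low libraries) passed edgeR's or DESeq2's test. The same held for 6 pituitary genes (median −1.67, 1.53 to 771 and 1.61 to 8939 CPM). Ependymal sums were 48.3 to 149 CPM in the 7 *Ttr*-rich libraries and 8.98 to 57.9 CPM in the other 25. The pituitary sum of 8939 CPM was that of replicate 5 of *Notch3+/+* mice, and the next highest low library, replicate 6 of WT mice, held 568 CPM.

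The comparison was repeated without the 7 *Ttr*-rich libraries, which left 15 high and 10 low ones, a choice made after the data were seen. Replicate 8 was the only low library left in WT mice, and replicates 4 and 7 were those left in TgNotch3R169C mice. All 32 genes kept their direction, at 76.4% to 115% of their log2 fold change in 32 libraries, and the median of the 30 genes went from 0.33 to 0.32. With 25 libraries only *Susd5* (0.44, adjusted p = 0.040) and *Des* (0.32, adjusted p = 0.049) passed the test, and 883 genes had an unadjusted p below 0.05. All 23 contractile genes again lay above 0 (median 0.18), whereas the median of the choroid plexus list was −0.05. Without these 7 and the *Prl*-rich library no gene passed edgeR's test (758 at an unadjusted p below 0.05), and the smallest adjusted p of the 32 genes was 0.09, that of *Susd5*, *Mcam*, and *Des*. With *Ttr* as a covariate in all 32 libraries 15 genes were called, all higher and all among the 30.

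**Figure D5:**
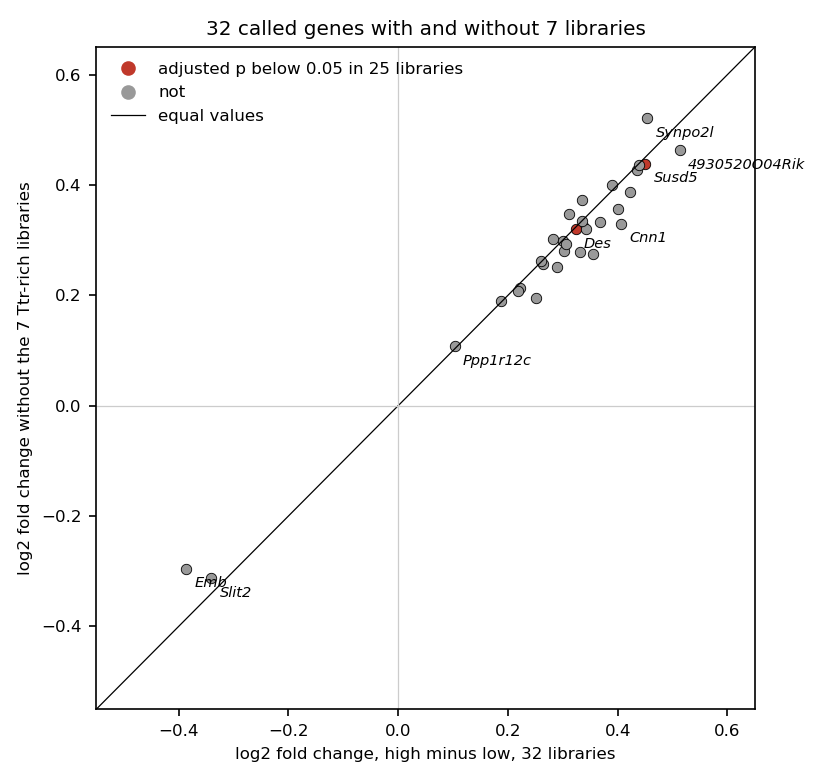
Log2 fold change (high minus low set) of the 32 called genes in all 32 libraries (x axis) and without the 7 Ttr-rich libraries (y axis), with a line of equal values. The points lie along the line on both sides of 0, and Susd5 and Des, in red, still passed the test.

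Within single groups of 4 against 4 libraries, no gene passed edgeR's test, with 474 genes at an unadjusted p below 0.05 in *Notch3+/+*, 900 in *Notch3-/-*, 864 in WT, and 1108 in TgNotch3R169C mice. DESeq2 called 8, 10, 1, and 2 genes in the same groups. The difference between the sets was then compared among the 4 groups by an interaction test. No gene differed in edgeR (287 at an unadjusted p below 0.05, smallest adjusted p = 0.16), and DESeq2 called 2. Of the 32 genes, the log2 fold changes in the 4 groups had the same sign throughout. They were chosen by a test over these same 4 groups, so this is not independent support.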

How the data were processed

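Brain arteries of 32 mice (8 per group, 1 library each) were sequenced, and the authors deposited raw counts of reads per Ensembl gene, not normalized. The submitters' processing notes name bcl2fastq 2.20.0.422, cutadapt 1.10, Bowtie2 2.2.8, STAR 2.5.3a, HTSeq 0.6.1p1, and the genome build mm39; the annotation release is not given in the sources used here. Groups came from the labels. Total counts per library ranged from 20289487 to 54481934. Of 55357 genes, 52081 were given a symbol by identifier, and 16744 had no counts.

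Counts were analysed with edgeR 4.0.16 in R 4.3.3: filterByExpr, TMM, and the quasi-likelihood test of high against low sets with group as covariate, in all 32 libraries, with Benjamini-Hochberg adjustment over 18723 genes (*Acta2* and *Myh11* left out). Levels are TMM-normalised CPM, except in the score, which uses CPM of the column total. The per-group and interaction tests used 1 fit of all libraries. p-values describe variation between these mice and not an intervention.

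Members, sets, and gene lists were chosen with earlier results of these data known. Genes named were drawn from the most abundant members of each list and its called members with the largest change. Further sources were the 12 called genes with the largest change in each direction (mean CPM of at least 1), *Notch3*, and its 11 targets. Not every gene that this rule gave is described. The remaining called genes, *Mylk*, *Smtn*, *Tpm1*, *Lmod1*, *Carmn*, *Myocd*, *Srf*, *Pecam1*, *Sox17*, and *Emcn* were named after their values were seen. No 2 libraries of a group were duplicates (chi-square per gene at least 9.94). Replicate numbers follow the *Xist* level in every group, but same-numbered libraries did not all deviate together, so the block was an alternative only. The edgeR test was checked on simulated counts, drawn for each gene independently. It recovered 46% of 100 genes with a log2 change of 0.3 and 67% of 100 with 0.5. Of its calls 4.24% were false. A list without a called gene can thus still hold differences of this size. DESeq2 1.42.0 and limma 3.58.1 served as alternatives. Promoters came from RefSeq (GRCm38.p6), used for sequence only.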

Additional observations from a re-analysis of the deposited data

Results flagged for a closer look

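In groups of 8 libraries, the gap between the extreme library and its neighbour was compared with the group's range (Dixon's test at its 95% critical value) for 40 measures in 4 groups. Of the 160 comparisons 16 exceeded it, and chance would give about 8. The ratios are given without an explanation.

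In *Notch3-/-* mice, replicate 1 lay above the others for *Jph2* (ratio 0.553; 25.9 CPM, the next library 21.0 CPM) and *Pdlim1* (0.619; 22.9 and 15.8 CPM), and replicate 4 for *Map3k7cl* (0.53; 7.44 and 5.60 CPM). Both are high libraries. Of the low libraries of that group, replicate 8 lay above for *Emb* (0.537; 215 and 160.4 CPM), and replicate 2 lay above for *Slit2* (0.537; 219 and 166.5 CPM) and below for *Cldn5* (0.552; 235 and 282 CPM).

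In WT mice, replicate 5 lay above for *Efhd1* (0.542; 27.3 and 23.3 CPM), replicate 1 above for *Pln* (0.623; 77.1 and 53.8 CPM), and replicate 4 below for *4930520O04Rik* (0.534; 0.484 and 1.12 CPM). In TgNotch3R169C mice, the low replicate 5 lay below for *Myl9* (0.537; 179 and 236 CPM) and for the summed contractile list (0.588; 4306 and 5251 CPM), and the high replicate 3 lay below for *Notch3* (0.535; 108 and 168 CPM).

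Among the summed marker lists, choroid plexus transcripts stood out in replicate 5 of *Notch3+/+* mice (0.703; 1055 and 718 CPM) and in replicate 8 of *Notch3-/-* mice (0.996; 39670 and 645 CPM). Pituitary transcripts stood out in replicate 5 of *Notch3+/+* mice (0.991; 8939 and 78.4 CPM), and neuronal transcripts in replicate 3 of that group (0.716; 2194 and 984 CPM).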

How the results depend on the processing

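Over all settings the 32 called genes kept their direction in 1760 of 1760 values and were still called in 1322. The genes were chosen in these same libraries, so a kept direction is not independent support. Of the 32 fits that left out 1 library, *Cytl1* was called in 8, *Emb* in 11, and *Jph2*, *Rrad*, and *Map3k7cl* in 12 each. *Susd5*, *Mcam*, and *Des* were called in all 32. The number of genes called, 32 in the comparison as described, moved by over 1.5 times under these settings: 0 against a fold change of 1.2; 9 with the choroid plexus list and 15 with *Ttr* as a covariate; 1 with the endothelium list; 99 with the score, 135 with *Acta2*, and 74 with *Myh11* as a continuous term; 1 in the 3-month and 0 in the 12-month groups alone; 276 (119 higher, 157 lower) with DESeq2; 13 and 51 at thresholds of 0.01 and 0.1; and 2 without the 7 *Ttr*-rich libraries and 0 without these and the *Prl*-rich one, where fewer libraries were fitted. The causes were not tested. RLE or upper-quartile scaling, other filters, limma voom, a robust fit, and neuron, fibroblast, or *Xist* covariates gave 27 to 37. Leaving out 1 library gave 21 (without replicate 3 of *Notch3+/+*) to 138 genes (47 higher, 91 lower, without replicate 5 of WT mice, the *Ttr*-rich high library). With the replicate number as a block 1 gene was called, with correlations between same-numbered libraries of −0.37 to 0.51 and 6 of 32 libraries closest to their own number. Replicates 1 to 4 of every group had low and replicates 5 to 8 high *Xist*, so same-numbered mice share this state; with *Xist* alone as a covariate 37 genes were called. Nothing else is known to be shared by number.

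Within groups, where no gene was called, DESeq2 gave 8 in *Notch3+/+*, 10 in *Notch3-/-*, 2 in TgNotch3R169C, and 1 in WT mice, and 2 for the interaction; leaving out 1 library gave 0 to 8, 0 to 1, 0 to 1, 0 to 0, and 0 to 1.

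Genes that were not called changed sign as follows. *Pgam2* became −0.082 with the block, −0.047 with the choroid plexus list, −0.034 with *Ttr*, −0.16 in 3-month groups, −0.11 without the 7 libraries, and −0.13 without 8. In 12-month groups *Angpt4* was −0.060 and *Grip2* −0.10. *Cdh6* was 0.060 in 3-month groups and 0.021 with the endothelium list. *Srf* was 0.059, 0.071, and 0.043 with the score, *Acta2*, and *Myh11* as continuous terms. *Ttr* was 0.31 with the choroid plexus list, 0.00029 with itself as covariate, and 0.47 without 8 libraries. *Enpp2* was 0.014 with that list, 0.028 without 7, and 0.061 without 8 libraries. Leaving out 1 library, *Pgam2* ranged from −0.043 to 0.12, *Grip2* from −0.00077 to 0.15, *Cdh6* from −0.11 to 0.027, and *Srf* from −0.038 to 0.0060.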

Other observations

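Of 14 glycolytic genes 13 had a log2 fold change below 0 in the high set (median −0.10), 8 were lower in all 4 groups (12.4% of all genes were), and 7 had an unadjusted p below 0.05 (12.3% of all genes in either direction). None passed edgeR's or DESeq2's test. The summed level of the glycolytic list was 1834 to 2221 CPM in the 7 *Ttr*-rich libraries, 6 of them in the low set. It was at most 1765 CPM in the other 25. The part of choroid plexus RNA in the glycolytic difference was not tested. The 18 nuclear genes of oxidative phosphorylation (median −0.03), the 7 mitochondrially encoded genes (median 0.03), and the 14 immediate early genes (median −0.03) held no called gene and none at an unadjusted p below 0.05.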
